A study of Mus musculus with 4 samples.

Results

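The deep layers and the subplate of the developing cortex are marked here by 10 genes, followed in bulk RNA-seq of the mouse cortex on embryonic day 15 (E15). They are Fezf2, Bcl11b and Crym for subcerebral neurons, Tbr1, Foxp2, Tle4, Zfpm2 and Hs3st4 for corticothalamic neurons, and Nr4a2 and Nfe2l3 for the subplate. They were taken by symbol from the deposited count table, which holds all 10 among its 13289 genes. Polyadenylated RNA of fresh cortex was sequenced in 2 control libraries, titled WT, and 2 Lhx2 cKO libraries, titled Lhx2cKO, a name read here as a conditional knockout of Lhx2, a LIM-homeodomain transcription factor of cortical progenitors. The allele, the Cre driver and the genotype of the controls are not given in the sources used here, nor is it said whether the 2 libraries of a group came from separate embryos. P-values therefore rest on the spread between these libraries, which may be technical. The edgeR fit draws the spread of each gene toward that of all genes (median prior degrees of freedom 38.7). With 2 libraries per group, its SEs and intervals thus reflect mostly this shared spread and not that of the single gene.

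Excitatory neurons of the cortex are born in an inside-out order. Subplate neurons and the corticothalamic neurons of layer 6 come first, the subcerebral neurons of layer 5 follow, and the callosal neurons of the upper layers come last. Subplate cells serve as early targets and guides for axons, corticothalamic neurons project to the thalamus, and subcerebral neurons project to the brainstem and spinal cord. Fezf2 and Bcl11b (also called Ctip2) form the core of the subcerebral programme, and Tbr1 restrains both in layer 6. The classes are not exclusive: Fezf2 is also made in corticothalamic neurons, and Hs3st4 and Tle4 are also made in subplate or layer 6b cells. Nfe2l3 was placed with the subplate as a working assignment.

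Total counts ranged from 22294237 to 24609627 per library, so that a detection floor of 3 counts lay between 0.122 and 0.135 CPM (read counts scaled to library size), a floor that covers counting error only. Lhx2 itself measured 316 and 287 CPM in control and 239 and 247 CPM in Lhx2 cKO, 80.7% of the control level (log2 fold change -0.31, SE 0.098, edgeR adjusted p 0.0191). Its adjusted p was 0.176 without control 1, 0.102 without Lhx2 cKO 1 and 0.0538 without Lhx2 cKO 2. Neurod2 (1217 and 1117 CPM in control, 1180 and 1173 CPM in Lhx2 cKO) and Neurod6, which define excitatory neurons of the dorsal forebrain, were abundant in every library labelled cerebral cortex.

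Among the 10 genes, Hs3st4 and Nr4a2 rose and Foxp2 fell in Lhx2 cKO, while 7 did not pass the quasi-likelihood test of edgeR at an adjusted p under 0.05 over all genes. A gene past that threshold is said to be called. The changes were modest, between 78.8% of the control level for Foxp2 and 147% for Hs3st4. Of all 13288 genes tested 20.8% were called, 11.6% higher and 9.17% lower, beside 2 called higher and 1 called lower of the 10, a share of 30% that rests on few genes. Without control 1 only Hs3st4 was called, and the fits without 1 of the other libraries called 2 or 3 genes. The median log2 fold change was 0.20 over the 10 genes and 0.003 over all genes. The Lhx2 cKO libraries lay both above or both below the control libraries for 9 of the 10 genes, as for 59.3% of all genes tested. They were above for 6 of the 10, against 30.2% of all genes, and below for 3, against 29.1%.

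**Figure D1:**
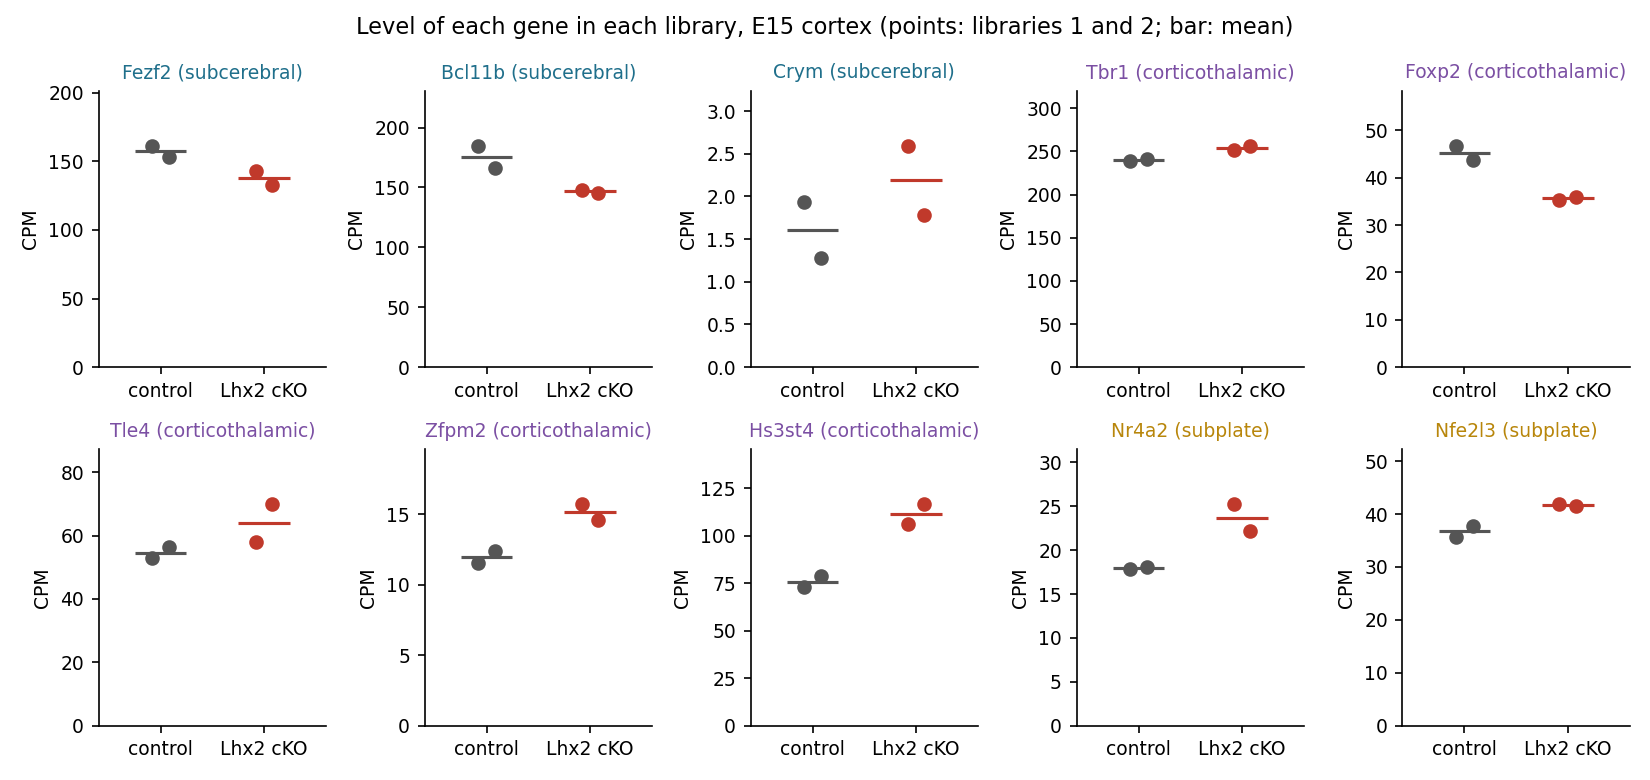
Level of each of the 10 genes in CPM (y axis, from 0) in the 2 control libraries (grey points) and the 2 Lhx2 cKO libraries (red points), with the group mean as a bar. Fezf2, Bcl11b and Foxp2 are lower in both Lhx2 cKO libraries, Crym overlaps between the groups, and the other 6 genes are higher in both.

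Sequence is shown for Hs3st4 and Nr4a2, the called rises, because the stretch just before the RefSeq start of both genes is rich in CpG dinucleotides. Below are the 250 bases before the RefSeq start of each (GRCm38.p6, 5′ to 3′ on the strand of the gene), with every CpG in capitals. The bases that follow the RefSeq start of Nr4a2 were found in its GENCODE M21 transcripts, while those that follow the RefSeq start of Hs3st4 were not. The Hs3st4 window is chr7:123982578-123982827 on the plus strand and the Nr4a2 window is chr2:57124004-57124253 on the minus strand.
Hs3st4: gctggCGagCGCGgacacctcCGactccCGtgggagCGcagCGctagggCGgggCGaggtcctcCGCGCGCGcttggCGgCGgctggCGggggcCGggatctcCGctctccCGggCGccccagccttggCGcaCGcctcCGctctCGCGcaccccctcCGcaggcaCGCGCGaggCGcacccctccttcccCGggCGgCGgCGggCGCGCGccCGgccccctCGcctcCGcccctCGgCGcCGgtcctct
Nr4a2: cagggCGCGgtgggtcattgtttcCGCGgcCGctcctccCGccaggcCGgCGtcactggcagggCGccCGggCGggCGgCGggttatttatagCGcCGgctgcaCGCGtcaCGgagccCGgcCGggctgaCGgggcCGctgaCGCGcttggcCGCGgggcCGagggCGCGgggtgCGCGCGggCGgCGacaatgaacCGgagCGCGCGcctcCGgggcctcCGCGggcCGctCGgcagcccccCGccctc

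The Hs3st4 window holds 43 CpG and the Nr4a2 window 44, and at least 43 were found in 0.712% of the 32851 RefSeq windows of this length, whose median was 6. Both windows were picked for this trait and set the cut-off, so the share describes them only. A link between CpG content and the calls was not tested. The table holds such a window for 7 of the 10 genes, and Foxp2, Crym and Zfpm2 had none. The other windows held 9 CpG for Bcl11b, 14 for Fezf2, 5 for Tbr1, 6 for Nfe2l3, and 35 and 24 for the 2 starts of Tle4. The windows were also searched for TAATTA, a core that LIM-homeodomain proteins such as Lhx2 bind. It reads the same on both strands and overlapped no other motif, since none other was searched. Of the 7 genes, Tbr1 alone matched, with copies that begin 33 and 18 bases before its start. At least 1 match was found in 4.84% of all windows, and 2 or more in 0.444%. The cut-off of 2 was set by Tbr1 itself, so that share describes its window only. The Tbr1 copies lie at chr2:61804420-61804440 on the plus strand (GRCm38.p6), with the matches in capitals.
Tbr1: TAATTAatgtctatcTAATTA

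A match describes letters and not a bound site, and no binding was measured in these libraries. Tbr1, with its matches, was not called.

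Of the subcerebral genes, none was called, although Fezf2 and Bcl11b were both lower in each Lhx2 cKO library than in either control library. Fezf2 (ENSMUSG00000021743.7, chromosome 14) encodes the zinc finger repressor that specifies subcerebral neurons. The control libraries held 161 and 153 CPM, and the Lhx2 cKO libraries held 143 and 133 CPM. The groups did not overlap, and Lhx2 cKO stood at 87.6% of control. The log2 fold change was -0.19 (SE 0.095, 95% interval -0.38 to 0.000271, edgeR adjusted p 0.157).

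Bcl11b (ENSMUSG00000048251.16, chromosome 12) encodes a zinc finger factor that acts downstream of Fezf2 in the outgrowth of corticospinal axons. Its levels were 185 and 166 CPM in control and 148 and 146 CPM in Lhx2 cKO, again without overlap. The Lhx2 cKO mean was 83.9% of control, with a log2 fold change of -0.25 (SE 0.095, 95% interval -0.45 to -0.06). Its adjusted p of 0.0522 lay just above the threshold in edgeR. It was 0.0473 under RLE scaling, 0.0485 under upper-quartile scaling and 0.0394 with the replicate number as a block, and in the authors' deposited table it was 0.0466. Over all settings with 4 libraries the estimate stayed between -0.31 and -0.25, with adjusted p from 0.014 to 0.0588. Leaving out control 1 gave -0.19 (adjusted p 0.333), and leaving out control 2 gave -0.33 (adjusted p 0.033).

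Crym (ENSMUSG00000030905.6, chromosome 7), which encodes mu-crystallin, a thyroid hormone-binding protein of corticospinal neurons, was near the low end of the table with 47 and 32 counts in the control libraries and 59 and 41 counts in the others. These correspond to 1.94 and 1.28 CPM in control and 2.59 and 1.78 CPM in Lhx2 cKO. The groups overlapped. The log2 fold change of 0.44 had a 95% interval from -0.34 to 1.22 (edgeR adjusted p 0.461), and a difference of the size seen for Bcl11b would not be detectable at this depth and spread. Without control 1 the estimate was 0.76, and without Lhx2 cKO 1 it was 0.15.

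The corticothalamic genes did not move as a block: Hs3st4 rose, Foxp2 fell, and Tbr1, Tle4 and Zfpm2 were not called. Hs3st4 (ENSMUSG00000078591.2, chromosome 7) encodes a heparan sulfate sulfotransferase of layer 6 and subplate neurons. It was at 72.9 and 78.6 CPM in control and at 106 and 117 CPM in Lhx2 cKO. Both Lhx2 cKO libraries were well above both controls, and the mean rose from 75.7 ± 4.04 to 111 ± 7.25 CPM (SD, n = 2). The log2 fold change was 0.56 (SE 0.097, edgeR adjusted p 2.83e-05). Of the 10 genes it was the one called under all 14 settings run, including each fit without 1 library, where the estimate ranged from 0.49 to 0.62. In GENCODE M21, 4.08% of its exon bases overlap Gm27040 on the other strand, and the strand setting of the counting is not given.

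Foxp2 (ENSMUSG00000029563.17, chromosome 6), a forkhead transcription factor of layer 6 neurons, was the called fall. It was at 46.7 and 43.7 CPM in control and at 35.3 and 35.9 CPM in Lhx2 cKO. Both Lhx2 cKO libraries lay below both controls and close to each other, and the mean fell from 45.2 ± 2.12 to 35.6 ± 0.407 CPM (SD, n = 2). The log2 fold change was -0.34 (SE 0.105, edgeR adjusted p 0.0147). It was called under each of the 10 settings with 4 libraries. With 1 library fewer the adjusted p was 0.109 without control 1, 0.0697 without Lhx2 cKO 1 and 0.0652 without Lhx2 cKO 2, at estimates from -0.36 to -0.31, and 0.0201 without control 2.

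Tbr1 (ENSMUSG00000035033.16, chromosome 2), the T-box factor that defines layer 6 identity, was the most abundant of the 10 genes by CPM and the one whose estimate lay nearest to 0. It was at 239 and 242 CPM in control and at 251 and 256 CPM in Lhx2 cKO. The groups did not overlap, but the gap was small, with a log2 fold change of 0.08 (SE 0.095, edgeR adjusted p 0.615). The 95% interval ran from -0.11 to 0.27, which leaves out a fall as large as that of Foxp2 and a rise as large as that of Hs3st4.

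Tle4 (ENSMUSG00000024642.18, chromosome 19), a Groucho-family corepressor, was at 52.8 and 56.4 CPM in control and at 58 and 69.9 CPM in Lhx2 cKO. Lhx2 cKO 2 stood above the other libraries. The log2 fold change was 0.23 (95% interval 0.02 to 0.44, edgeR adjusted p 0.119), and it was 0.36 (adjusted p 0.0317) without Lhx2 cKO 1 and 0.08 (adjusted p 0.779) without Lhx2 cKO 2.

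Zfpm2 (ENSMUSG00000022306.10, chromosome 15), also called Fog2, a cofactor of GATA factors that is expressed in corticothalamic neurons, was at 11.5 and 12.4 CPM in control and at 15.7 and 14.6 CPM in Lhx2 cKO. The groups did not overlap. The log2 fold change was 0.34, close in size to that of Nr4a2, but with a wider error (SE 0.153, 95% interval 0.03 to 0.65, edgeR adjusted p 0.117).

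The subplate genes were both higher in Lhx2 cKO, and 1 of them was called. Nr4a2 (ENSMUSG00000026826.14, chromosome 2), also called Nurr1, is an orphan nuclear receptor of subplate neurons that is also induced by neuronal activity. It was at 17.8 and 18.1 CPM in control and at 25.2 and 22.2 CPM in Lhx2 cKO. The groups did not overlap, and Lhx2 cKO 1 was the highest library. Its mean rose from 18 ± 0.219 to 23.7 ± 2.14 CPM (SD, n = 2), with a log2 fold change of 0.40 (SE 0.131, edgeR adjusted p 0.0242). The call was lost in DESeq2 (adjusted p 0.0674), without control 1 (0.129), without control 2 (0.0713) and without Lhx2 cKO 1 (0.203), with estimates from 0.30 to 0.41.

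Nfe2l3 (ENSMUSG00000029832.17, chromosome 6), a basic leucine zipper factor of the Nrf family, was at 35.8 and 37.8 CPM in control and at 41.8 and 41.4 CPM in Lhx2 cKO. The groups did not overlap, but the log2 fold change of 0.18 (95% interval -0.03 to 0.39) was not called (edgeR adjusted p 0.241).

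**Figure D2:**
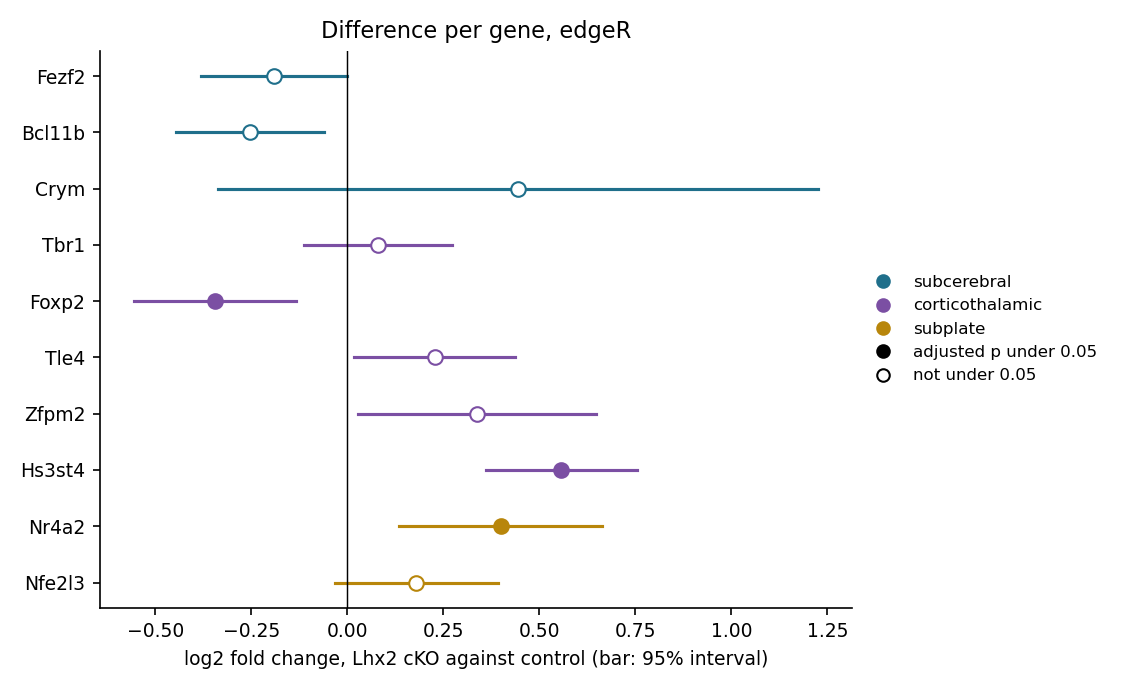
Log2 fold change between Lhx2 cKO and control for each gene (x axis), as a point with its 95% interval from the edgeR fit, coloured by class; filled points have an adjusted p under 0.05. Foxp2 (-0.34), Hs3st4 (0.56) and Nr4a2 (0.40) are filled, and Crym has the widest interval, from -0.34 to 1.22.

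Added together, the 10 genes took a like share of each library, with 824 and 809 CPM in control and 828 and 837 CPM in Lhx2 cKO. The split between the classes differed. The 3 subcerebral genes summed to 348 and 320 CPM in control and to 294 and 280 CPM in Lhx2 cKO. The 5 corticothalamic genes summed to 423 and 433 CPM in control and to 467 and 493 CPM in Lhx2 cKO, and the 2 subplate genes to 53.6 and 55.9 CPM and to 67.1 and 63.6 CPM. These sums weight abundant genes most, Tbr1 and Bcl11b above all, and carry no test. The rise of the corticothalamic sum came mostly from Hs3st4, whose mean went from 75.7 to 111 CPM, while Tbr1 went from 240 to 254 CPM. Since Hs3st4 is also made in subplate or layer 6b cells, the split depends on where that gene is placed. In bulk tissue, fewer cells of a type and less RNA per cell cannot be told apart.

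Ratios of counts within a library do not depend on how libraries are scaled. The following pairs were chosen after the values were seen. Per count of Tbr1 there were 0.774 and 0.686 counts of Bcl11b in control but 0.59 and 0.568 in Lhx2 cKO. Hs3st4 went the other way, from 0.305 and 0.325 per count of Tbr1 in control to 0.423 and 0.455 in Lhx2 cKO. The ratio of Hs3st4 to Bcl11b was 0.394 and 0.474 in the control libraries, below the 0.717 and 0.8 of the Lhx2 cKO libraries. That of Fezf2 to Bcl11b overlapped between the groups, with 0.873 and 0.924 for control beside 0.964 and 0.91 for Lhx2 cKO. The proportion of Fezf2 to Bcl11b was thus alike within the spread of the libraries, while that of Hs3st4 to either Tbr1 or Bcl11b lay higher in both Lhx2 cKO libraries.

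Per kilobase of the deposited gene length, which allows levels of different genes to be set side by side, Fezf2 was the highest in control at 51.6 ± 1.87 CPM per kilobase (SD, n = 2), followed by Tbr1 at 43.8 ± 0.377, Hs3st4 at 23.7 ± 1.27 and Bcl11b at 21.6 ± 1.65. The nearest control libraries of Hs3st4 and Bcl11b stood at 22.9 and 22.8, so these neighbours did not differ beyond their spread. In Lhx2 cKO, Hs3st4 at 34.9 ± 2.27 stood clear of Bcl11b at 18.1 ± 0.218 CPM per kilobase. Tbr1 at 46.3 ± 0.65 and Fezf2 at 45.2 ± 2.41 exchanged places there but overlapped. The other 6 genes kept their order in both groups, which in control ran from Nfe2l3 at 12.4 ± 0.479 through Tle4 at 9.57 ± 0.445, Nr4a2 at 4.43 ± 0.0538, Foxp2 at 2.77 ± 0.129 and Zfpm2 at 1.26 ± 0.0635 to Crym at 0.475 ± 0.137 CPM per kilobase. The low place of Foxp2 goes with a deposited length of 16346 bases.

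The reading of some of the 10 genes depended on which list of neuron genes they were set against. The mean log2 CPM of 10 pan-neuronal genes was nearly level between libraries, from 8.23 to 8.27, and differences relative to it were close to those above, for example -0.25 for Bcl11b and 0.56 for Hs3st4. Within this list Stmn2 rose (log2 fold change 0.60) and Rbfox3 (-0.43) and Elavl4 (-0.55) fell, with 7 not called. That is 30% called, against 20.8% of all genes tested. The mean log2 CPM of 7 genes of cortical glutamatergic neurons was lower in Lhx2 cKO, at 6.99 in both libraries against 7.22 and 7.20 in control. Of these 7, Neurod6 (-0.32) and Nrn1 (-0.73), which overlaps Fars2 on the other strand, fell, and 5 were not called. The share called was 28.6%, against 20.8% of all genes tested. Nrn1 had the largest fall, beside a median log2 fold change of -0.13 for the list and 0.01 for Neurod2. Relative levels without Nrn1 in the list were not tested. Relative to all 7 glutamatergic genes the difference was 0.03 for Fezf2 and -0.03 for Bcl11b, with overlapping groups. It was -0.12 for Foxp2, 0.30 for Tbr1, 0.62 for Nr4a2 and 0.78 for Hs3st4. Hs3st4, Nr4a2, Tbr1, Tle4, Zfpm2 and Nfe2l3 were above control in both Lhx2 cKO libraries on either scale. Going from the pan-neuronal to the glutamatergic list raises every gene alike in Lhx2 cKO. A gene above control on the pan-neuronal scale had to be above on the other, which is no separate support.

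**Figure D3:**
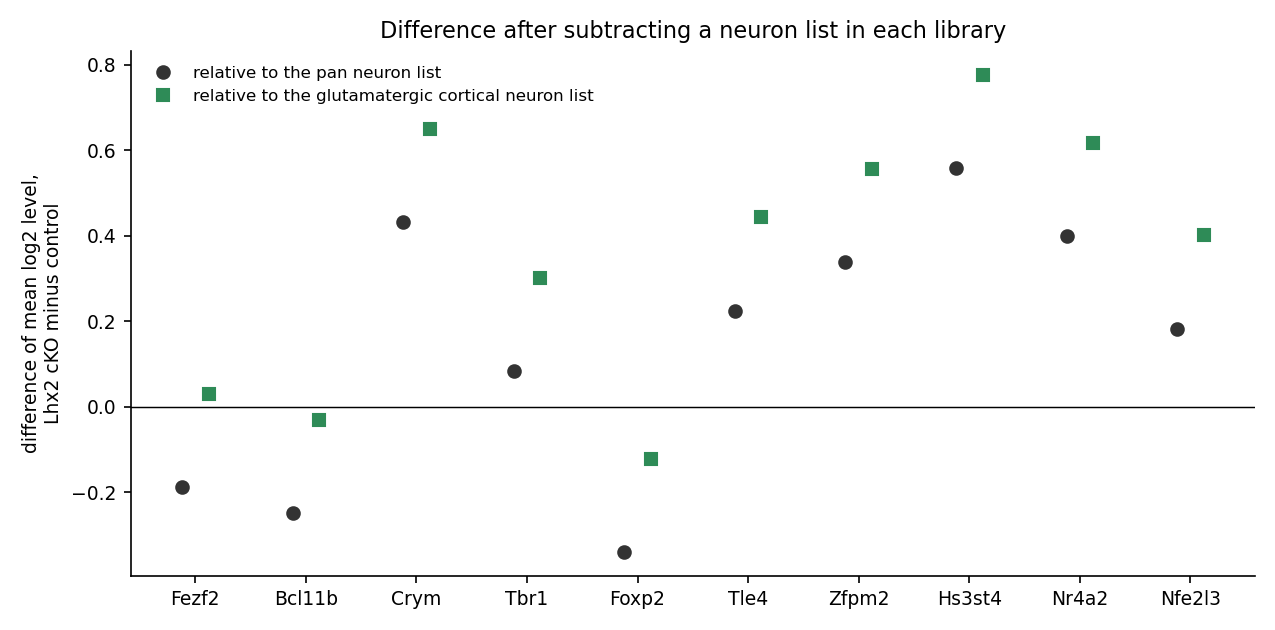
Difference of the mean log2 level between Lhx2 cKO and control (y axis) for each gene after the mean log2 level of a neuron list was subtracted in each library, with the pan neuron list as black circles and the glutamatergic cortical neuron list as green squares. Fezf2 moves from -0.19 to 0.03 and Bcl11b from -0.25 to -0.03 between the lists, while Hs3st4 is the highest on both. Every gene moves up by the same amount, so the order of the genes is the same on both.

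Other genes of the same classes were read from lists written from general knowledge. The share called was 58.3% of the other subcerebral, 70% of the other corticothalamic and 36.4% of the other subplate genes measured. Of all genes tested it was 20.8%, and the lists hold few genes. Among 12 other subcerebral genes, 3 were called higher and 4 lower, with a median log2 fold change of -0.11. Ldb2, a cofactor of LIM-domain proteins found in corticospinal neurons, rose from 29.9 ± 4.56 to 64.3 ± 2.32 CPM (SD, n = 2), with a log2 fold change of 1.10 (edgeR adjusted p 1.65e-10). S100a10, an annexin partner, rose from 7.75 and 8 CPM to 12.6 and 18 CPM, and Cdh13, or T-cadherin, rose from 220 and 248 CPM to 333 and 347 CPM. The 4 falls, named after their values were seen, were Cntn6 (-1.28), Pcp4 (-0.62), Otx1 (-0.43) and Crim1 (-0.37) on the log2 scale. Of the exon bases of Pcp4, 23.7% overlap Igsf5 on the same strand, so its count is uncertain. In DESeq2 and without Lhx2 cKO 1, 4 of the 12 were called in place of 7.

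Among 10 other corticothalamic genes, 5 were called higher and 2 lower, with a median log2 fold change of 0.32. Ntsr1, the neurotensin receptor by which layer 6 corticothalamic neurons are often marked, was at 96.7 and 85.2 CPM in control and at 124 and 151 CPM in Lhx2 cKO (log2 fold change 0.60, edgeR adjusted p 1.73e-05). Grik3, a kainate receptor subunit, rose from 231 and 211 CPM to 291 and 345 CPM (0.53, adjusted p 1.31e-04). The other rises, named after their values were seen, were Tshz2, Syt6 and Rprm. Of the exon bases of Tshz2, 65.2% overlap Gm26883 on the other strand, so its count is uncertain. Tshz2, with the largest rise of the list (1.08), was placed among corticothalamic genes as a working assignment. Wnt7b, a Wnt ligand of deep-layer neurons, fell from 625 and 527 CPM to 298 and 354 CPM (-0.82, adjusted p 1.68e-07), and Lmo3 was the other fall. With library totals in place of TMM, in DESeq2, without control 1 and without Lhx2 cKO 2, 4 of the 10 were called in place of 7.

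Of 12 other subplate genes 11 were in the table, and 1 was called higher and 3 lower, with a median log2 fold change of 0.14. Lpar1, a lysophosphatidic acid receptor, was at 33.6 and 36.3 CPM in control and at 2.72 and 2.57 CPM in Lhx2 cKO, a log2 fold change of -3.72 (edgeR adjusted p 5.93e-21). Nxph4, a neurexophilin, fell from 93.2 and 86.3 CPM to 39.2 and 48.3 CPM (-1.04, adjusted p 3.83e-10), and Tmem163 was the other fall. Cdh10, a cadherin, rose from 49.4 and 55.5 CPM to 65.9 and 81.1 CPM. Ccn2, a connective tissue growth factor that marks the subplate after birth, was at 3.71 and 3.56 CPM in control and at 3.52 and 5.48 CPM in Lhx2 cKO and was not called. The called genes of this list thus went both ways. Lpar1, Nxph4 and Tmem163 fell, Cdh10 rose like Nr4a2, and 7 were not called. Which cells made Lpar1 in this tissue was not tested.

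**Figure D4:**
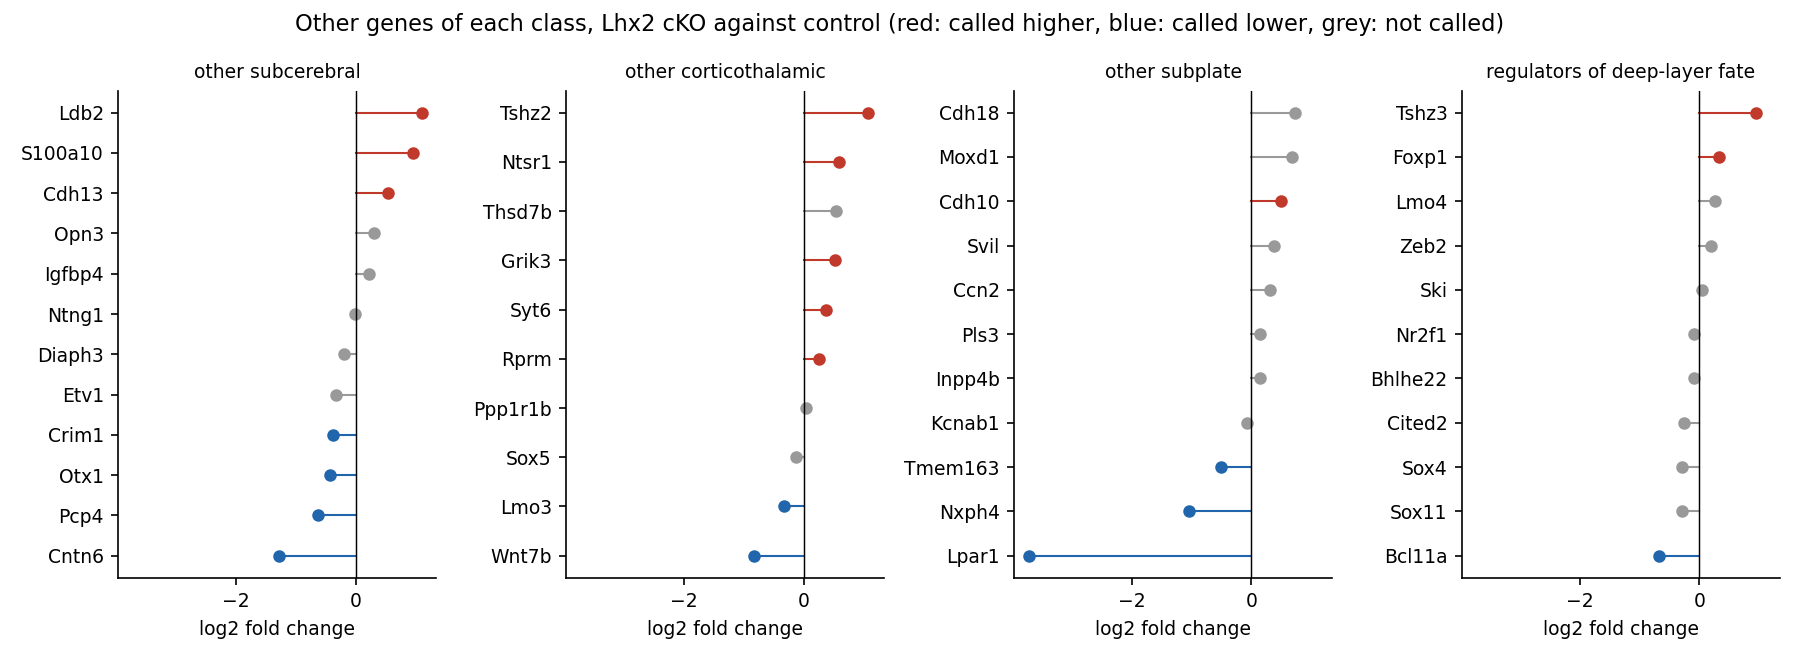
Log2 fold change between Lhx2 cKO and control (x axis) for the other genes of each class and for regulators of deep-layer fate, 1 line per gene; red is called higher, blue called lower and grey not called. Rises and falls stand together in each panel, with Lpar1 at -3.72 the lowest and Ldb2 at 1.10 the highest among the called genes.

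Among 11 regulators that act on the choice of deep-layer fate, 2 were called higher, 1 lower and 8 were not called. The share called was 27.3%, near the 20.8% of all genes tested. Bcl11a, the paralogue of Bcl11b, fell from 515 and 496 CPM to 317 CPM in both Lhx2 cKO libraries (-0.67, adjusted p 1.99e-06). Tshz3, a zinc finger homeobox factor, rose from 29 and 29.2 CPM to 56.6 and 56 CPM (0.95, adjusted p 2.29e-09), and Foxp1, a forkhead partner of Foxp2, rose from 93.7 and 78.1 CPM to 111 and 103 CPM (0.32, adjusted p 0.0174). Of the exon bases of Foxp1, 2.18% overlap Gm20696 on the same strand. In GENCODE M21, between 2.05% and 8.67% of the exon bases of Crim1, Syt6, Wnt7b, Tmem163 and Bcl11a overlap a gene on the other strand, so their counts are uncertain to that extent. Sox4 and Sox11, which activate Fezf2, had log2 fold changes of -0.28 and -0.29 and were not called (adjusted p 0.0957 and 0.0849), and 54.6% of the exon bases of Sox4 overlap Gm26735 on the other strand.

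Several of the 10 genes are also made outside deep-layer neurons. Bcl11b and Foxp2 are strong in striatal projection neurons, for which 7 of 12 markers were in the table. Their summed level was 333 and 331 CPM in control and 245 and 241 CPM in Lhx2 cKO, nearly all of it Meis2, which fell (-0.56), while the dopamine receptor Drd1 (0.73) and Penk (1.63) rose. Drd1 did not exceed 10.5 CPM in any library. Tbr1 is also made in Cajal-Retzius cells. Of their 6 measured markers 5 were called higher and 0 lower, and their summed level was 314 and 347 CPM in control and 471 and 598 CPM in Lhx2 cKO, most of it Reln. Of 9 interneuron markers 3 were called higher and 0 lower, with a summed level of 325 and 294 CPM in control and 391 and 376 CPM in Lhx2 cKO. Most progenitor markers moved the other way: 6 of 10 were called lower and 0 higher. Their summed level went from 939 and 954 CPM in control to 633 and 608 CPM in Lhx2 cKO. Mean levels fell from 215 to 68.3 CPM for Eomes, from 129 to 54.6 CPM for Pax6 and from 113 to 39 CPM for Emx1. Vim (209 to 240 CPM) and Hes5 (3.82 to 5.27 CPM) lay above control in both Lhx2 cKO libraries and were not called. In GENCODE M21, 31.8% of the exon bases of Hes5 and 2.84% of those of Eomes overlap a gene on the other strand. The share of measured markers called was 42.9% for striatal projection neurons, 83.3% for Cajal-Retzius cells, 33.3% for interneurons and 60% for progenitors. Of all genes tested it was 20.8%. The part of these cell types in the differences of the 10 genes was not tested.

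In the authors' deposited table, 4 of the 10 genes had an adjusted p under 0.05, as did 20.4% of the genes tested here. The 4 were Hs3st4 (log2 fold change 0.55), Foxp2 (-0.35), Nr4a2 (0.39) and Bcl11b (-0.26). All 10 carry the mark NS in the authors' deposited table, where genes are otherwise marked up or down. The authors' signs were those found here for each of the 10 genes.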

How the data were processed

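The deposited table gives raw read counts per gene for the 4 libraries. Per the submitters' processing notes Trim Galore, Subread, featureCounts and edgeR were used with build mm39, with no versions, strand setting or annotation given. The authors' log2 fold change, their mean log2 CPM, p-value, adjusted p-value and its -log10 stand in the same deposited table, with a gene length. Libraries were grouped by title. Counts were tested with edgeR 4.0.16 in R 4.3.3 (TMM, filterByExpr with a minimum of 10 counts, quasi-likelihood test, no covariates) over 13288 genes, with Benjamini-Hochberg adjustment. CPM are scaled with TMM over the deposited genes, and log2 CPM use a prior count of 2. Standard errors were obtained from the fold change and the F statistic, and the fit was tested on simulated data. That simulation gave every gene the same spread and independent libraries. It therefore does not speak to spread that differs between genes or to technical replicates. The 10 genes, the lists and the naming rule (all 10 genes, Lhx2 and up to 3 called genes of smallest p per list) were chosen with earlier results of these data known; 1 listed regulator is not reported here. Lists outside the 10 genes covered other subcerebral, corticothalamic and subplate genes, fate regulators, pan neurons, glutamatergic neurons, progenitors, striatum, interneurons, thalamus, Cajal-Retzius cells, claustrum and hippocampus. Promoter sequences are from RefSeq (GRCm38.p6) and exon overlaps from GENCODE M21, both on an older build than the counts, and were matched by symbol. Alternatives were other scalings and filters, DESeq2 1.42.0, limma-voom (limma 3.58.1), a replicate block, scaling by pan-neuronal counts and leaving out each library.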

Additional observations from a re-analysis of the deposited data

How the results depend on the processing

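No fitted log2 fold change of Lhx2 or of the 10 genes changed sign under any setting run, whereas the level of Fezf2 relative to neuron genes did so when the glutamatergic list was used. On that list the groups overlapped for Fezf2, and Nrn1 made the largest part of the fall of the list. Hs3st4 kept its call throughout. Bcl11b passed the threshold with RLE size factors (-0.258), upper-quartile factors (-0.251), the replicate block (-0.252) and pan-neuronal scaling (-0.306), which shifted the median of all genes by -0.05. Nr4a2 lost its call in DESeq2 (0.396) and with pan-neuronal scaling (0.348). The number of genes called lower was therefore 2 with RLE, upper-quartile factors, the block and pan-neuronal scaling, and the number called higher was 1 in DESeq2 and with pan-neuronal scaling. At an adjusted p under 0.01 there was 1 call, higher, and 0 lower, fewer by construction. With 1 library left out, the lone library is assumed to vary like the other group, and fewer samples give fewer calls. These fits gave Lhx2 from -0.38 to -0.25, Bcl11b from -0.33 to -0.19, Foxp2 from -0.39 to -0.31, Tle4 from 0.083 to 0.36 and Nr4a2 from 0.30 to 0.49. Calls among the 10 genes ranged from 1 to 3, from 1 to 2 higher and from 0 to 2 lower. DESeq2 called 4 other subcerebral and 4 other corticothalamic genes, and 5 regulators, as did limma-voom (5). Library totals gave 4 other corticothalamic genes. Without 1 library the calls ranged from 4 to 6 for other subcerebral, from 4 to 5 for other corticothalamic genes and from 2 to 3 for regulators. The cause was not tested. Against glutamatergic in place of pan-neuronal genes the difference was 0.030 for Fezf2, -0.031 for Bcl11b, 0.30 for Tbr1, -0.12 for Foxp2, 0.44 for Tle4, 0.56 for Zfpm2, 0.78 for Hs3st4, 0.62 for Nr4a2 and 0.40 for Nfe2l3. The deviations of like-numbered libraries had a correlation of -0.0098 across genes, which shows no common shift over all genes. Whether like-numbered libraries share a batch was not tested. The block raised the calls over all genes from 2758 to 2874. Crym was not tested with a mean count of at least 50.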

Other observations

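Markers of neighbouring regions that also express some of the 10 genes showed little common movement. The share called was 0% for hippocampus, 14.3% for thalamus and 25% for claustrum and lateral pallium, against 20.8% of all genes tested. Of 6 hippocampal markers 0 were called in edgeR, with 0 at an unadjusted p under 0.05, and their summed level was 187 and 204 CPM in control and 200 and 175 CPM in Lhx2 cKO. Of 7 thalamic markers in the table Rora was called higher, and their summed level was 20.6 and 20.4 CPM in control and 22.2 and 23.1 CPM in Lhx2 cKO. Of 4 measured markers of the claustrum and lateral pallium, where Nr4a2 is also made, Ntng2 was called lower and the others were not called. Ntng2 was at 302 and 211 CPM in control and at 195 and 193 CPM in Lhx2 cKO. Of the exon bases of Ntng2, 13.98% overlap 6530402F18Rik on the same strand, so its count is uncertain.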
